A study of Mus musculus with 45 samples.

Results

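Choroid plexus genes were followed in the hippocampus of 45 female mice. The 10 genes were Ttr, Kl, Folr1, Kcnj13, Clic6, Otx2, Sostdc1, Aqp1, Enpp2 and F5, and all 10 were among the 15897 genes of the expression table. They were chosen by a measured value, the large spread of their levels between mice of the same group, so this spread is described below without a test.

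The mice were C57Bl/6J and came from a study that crossed an amyloid and a tau model of Alzheimer's disease and gave a diet that induces features of type 2 diabetes. A+ mice carried APPswe/PS1dE9, a chimeric mouse and human APP with the Swedish mutation and a human presenilin lacking an exon, both driven by the mouse prion protein promoter. T+ mice carried human tau with the P301L mutation under the CaMKII promoter, which is active in forebrain neurons. AwTw mice were wild-type littermates with neither transgene, AwT+ mice had tau alone, A+Tw mice had APP/PS1 alone and A+T+ mice had both. The typical Western diet (TWD) held 21% fat by weight and 0.15% cholesterol and was fed from 7 to 13 months of age. The standard chow (STD) held 5% fat and 0% cholesterol. On STD there were 6 mice each of AwTw and AwT+, 5 of A+Tw and 4 of A+T+. On TWD each of the 4 genotypes had 6 mice. The labels gave a batch for each mouse, with 20 mice in batch 0 and 25 in batch 1, and A+Tw/STD had 1 mouse in batch 0. What the batch stood for was not stated. Mice are named below by group and by a number in the order in which the samples are listed.

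The choroid plexus is a sheet of secretory epithelium that hangs into the brain ventricles and produces cerebrospinal fluid. It lies against the hippocampus in the lateral ventricle, and its epithelial cells, unlike neurons, make transthyretin, ion and water transporters and folate carriers in large amounts. A hippocampal sample is bulk tissue, so a lower number of choroid plexus cells and less RNA per cell cannot be told apart in these values.

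All levels are variance-stabilized values on a log2-like scale, from which the authors had removed batch. An SD or a difference of 1 on this scale is close to a 2-fold difference for abundant genes and is an underestimate for genes with few reads. Median values per mouse over all genes lay between 8.05 and 8.31. Read counts were not recoverable from these values, so the exact depth of each library is unknown and the errors given are the spread between mice. The methods of the study give only a minimum read depth for all samples. Levels of different genes are not compared with each other, since they were not scaled by length.

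The members fell into a few roles. Ttr encodes transthyretin, the carrier of thyroxine and retinol-binding protein secreted into cerebrospinal fluid. Folr1 (chr7:101858331-101870788, GRCm38) encodes the folate receptor that carries folate across the epithelium. Aqp1 (chr6:55336432-55348555) encodes a water channel of the apical membrane, Kcnj13 (chr1:87386363-87394729) an inward rectifier potassium channel, and Clic6 (chr16:92485736-92541243) a member of the chloride intracellular channel family. Kl (chr5:150952607-150993817) encodes klotho, the co-receptor of FGF23. Enpp2 (chr15:54838901-54952892) encodes autotaxin, which makes lysophosphatidic acid and is also made by oligodendrocytes. Sostdc1 (chr12:36314139-36318452) encodes a secreted antagonist of BMP and Wnt signalling, and F5 (chr1:164151838-164220277) encodes coagulation factor V. Otx2 (chr14:48657677-48673819) encodes a homeodomain transcription factor needed for choroid plexus formation.

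Because the levels of these genes moved together, the bases in front of their transcription starts were searched for the letters TAATCC, a core bound by Otx2, and TGTTTAC, a forkhead core, on both strands. RefSeq windows (GRCm38.p6, from 250 bases before to 50 bases after a start) were found for 5 members, with 8 windows in all, and for Ttr, Folr1, Clic6, Sostdc1 and Enpp2 none was used here. TAATCC was present in 1 of the 8 windows, against 7.06% of all 32851 windows, and TGTTTAC in 0 of 8, against 3.65%. The match lay in front of the third listed Otx2 start, from base -211 to base -206, within an exon of another Otx2 transcript. The 30 bases around it (chr14:48665303-48665332, minus strand) are given first, with the match on the opposite strand in capitals. The 250 bases upstream of the first Otx2 start (chr14:48667645-48667894, minus strand), of Kl (chr5:150952357-150952606, plus strand) and of Kcnj13 (chr1:87394730-87394979, minus strand) follow in lower case, since these windows held neither motif. These genes moved together, and the GC content of the 250 bases was 42.0% for the first Otx2 start, 45.2% for Kcnj13 and 66.8% for Kl. It was 57.2% for F5, 62.0% for Aqp1 and 48.4% to 53.6% for the other 3 Otx2 starts.
Otx2 match: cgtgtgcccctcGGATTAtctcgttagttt
Otx2: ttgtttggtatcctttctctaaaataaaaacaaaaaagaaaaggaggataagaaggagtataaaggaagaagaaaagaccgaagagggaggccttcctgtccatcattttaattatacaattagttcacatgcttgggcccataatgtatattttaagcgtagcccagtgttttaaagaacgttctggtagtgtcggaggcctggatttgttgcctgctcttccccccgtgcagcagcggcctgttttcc
Kl: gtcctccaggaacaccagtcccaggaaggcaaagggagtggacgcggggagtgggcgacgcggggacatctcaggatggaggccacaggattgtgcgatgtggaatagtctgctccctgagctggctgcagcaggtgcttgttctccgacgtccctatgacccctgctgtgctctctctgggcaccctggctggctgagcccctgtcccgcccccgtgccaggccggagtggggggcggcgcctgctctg
Kcnj13: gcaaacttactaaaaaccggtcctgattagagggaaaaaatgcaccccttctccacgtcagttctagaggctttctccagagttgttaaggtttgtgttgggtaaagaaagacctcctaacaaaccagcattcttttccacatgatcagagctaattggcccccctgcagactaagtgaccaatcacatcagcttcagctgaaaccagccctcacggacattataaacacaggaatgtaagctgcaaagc
The absence of these letters from a window says nothing of whether a factor binds elsewhere.

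Between mice of the same group and batch, Ttr varied more than any other gene of the table. Its within-group SD was 3.12 (36 residual degrees of freedom), against a median of 0.263 over all 15897 genes. Clic6 ranked 12th with an SD of 1.64, Aqp1 21st with 1.53, Kcnj13 23rd with 1.51 and F5 26th with 1.46. Folr1 (SD 1.40), Enpp2 (1.38), Otx2, Sostdc1 (1.18) and Kl (1.11) ranked 30th, 32nd, 52nd, 60th and 81st. The rule gave no lower limit. Of their total variance after batch removal, 75.1% for Kl to 84.1% for Kcnj13 lay within groups, and the median over all genes was 77.8%.

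Ttr ranged from 7.49 in mouse 1 of AwT+/TWD to 18.08 in mouse 3 of AwTw/TWD, a difference of 10.59 or 1546-fold on this scale. Its lowest, median and highest values were 9.19, 11.16 and 16.64 in AwTw/STD and 8.85, 9.72 and 18.08 in AwTw/TWD. They were 8.05, 15.94 and 16.59 in AwT+/STD and 7.49, 13.83 and 16.97 in AwT+/TWD. Thus each of these 4 groups held both very low and very high mice. The A+Tw/STD mice had Ttr values of 15.14, 11.05, 16.12, 14.42 and 15.21, and A+Tw/TWD had a lowest, median and highest value of 9.73, 15.93 and 17.59. The A+T+/STD mice had values of 17.20, 16.50, 15.93 and 16.73, and A+T+/TWD ran from 10.89 over a median of 16.19 to 17.08. A+T+/STD was the group without a low mouse, but its range overlapped that of each of the other 7 groups.

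Folr1 had the same distribution at a smaller scale, from 5.21 to 9.50 over all mice. Its lowest, median and highest values were 5.50, 5.93 and 8.74 in AwTw/STD, 5.64, 5.84 and 9.34 in AwTw/TWD, 5.36, 8.33 and 9.50 in AwT+/STD, and 5.21, 7.37 and 8.84 in AwT+/TWD. The A+Tw/STD mice had 7.52, 5.89, 8.70, 7.14 and 7.78, and A+Tw/TWD had a lowest, median and highest value of 5.51, 8.08 and 8.81. The A+T+/STD mice had 9.45, 9.37, 8.93 and 8.99, and A+T+/TWD had 5.93, 8.25 and 8.94. All 4 A+T+/STD mice lay above the highest AwTw/STD mouse for Folr1, which held for 1 of the 10 members and for 2.82% of all genes. In the other 5 comparisons of a transgenic group with AwTw mice on the same diet, 0 members were free of overlap in this direction, beside 0.528% of all genes for A+T+/TWD, 1.14% for A+Tw/STD, 0.61% for A+Tw/TWD, 0.0566% for AwT+/STD and 0.00629% for AwT+/TWD.

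Kl, the member with the smallest spread, ran from 7.62 to 11.42. Its lowest, median and highest values were 8.17, 8.86 and 11.13 in AwTw/STD, 7.62, 8.25 and 9.95 in AwTw/TWD, 8.37, 10.41 and 11.42 in AwT+/STD, and 8.11, 8.92 and 11.38 in AwT+/TWD. The A+Tw/STD mice had 9.95, 7.63, 11.10, 9.47 and 9.33, and A+Tw/TWD had 7.93, 9.55 and 10.50. The A+T+/STD mice had 10.60, 10.86, 10.22 and 11.06, and A+T+/TWD had 8.41, 10.05 and 10.89. For Kl the 4 A+T+/STD mice lay above all 6 AwTw/TWD mice, and the groups otherwise overlapped. The lowest A+T+/STD mouse also lay above the highest AwTw/TWD mouse for Enpp2 (13.65 and 13.56) and F5 (8.40 and 8.27). Genotype and diet both differ in this comparison, which was not among those planned. The share of all genes free of overlap was not computed for it, so these cases are not read as a result. Between A+T+/STD and AwTw/STD, on the same diet, that share was 2.82%.

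The other 7 members were spread in the same way. Over the 45 mice the channel genes Kcnj13, Clic6 and Aqp1 ran from 4.35 to 9.38, from 5.45 to 10.66 and from 4.68 to 9.46. The secreted or enzyme genes Sostdc1, Enpp2 and F5 ran from 5.72 to 9.49, from 10.27 to 14.89 and from 4.81 to 9.72. The transcription factor gene Otx2 ran from 4.66 to 8.56. Between the lowest and the highest mouse, these ranges correspond to 13.6-fold for Sostdc1, 15.0-fold for Otx2, 24.5-fold for Enpp2, 27.4-fold for Aqp1, 32.7-fold for Kcnj13 and 37.0-fold for Clic6. The smallest SD among the 8 groups was that of A+T+/STD for each of the 10 members, from 0.20 for Kcnj13 to 0.53 for Ttr (n = 4).

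**Figure D1:**
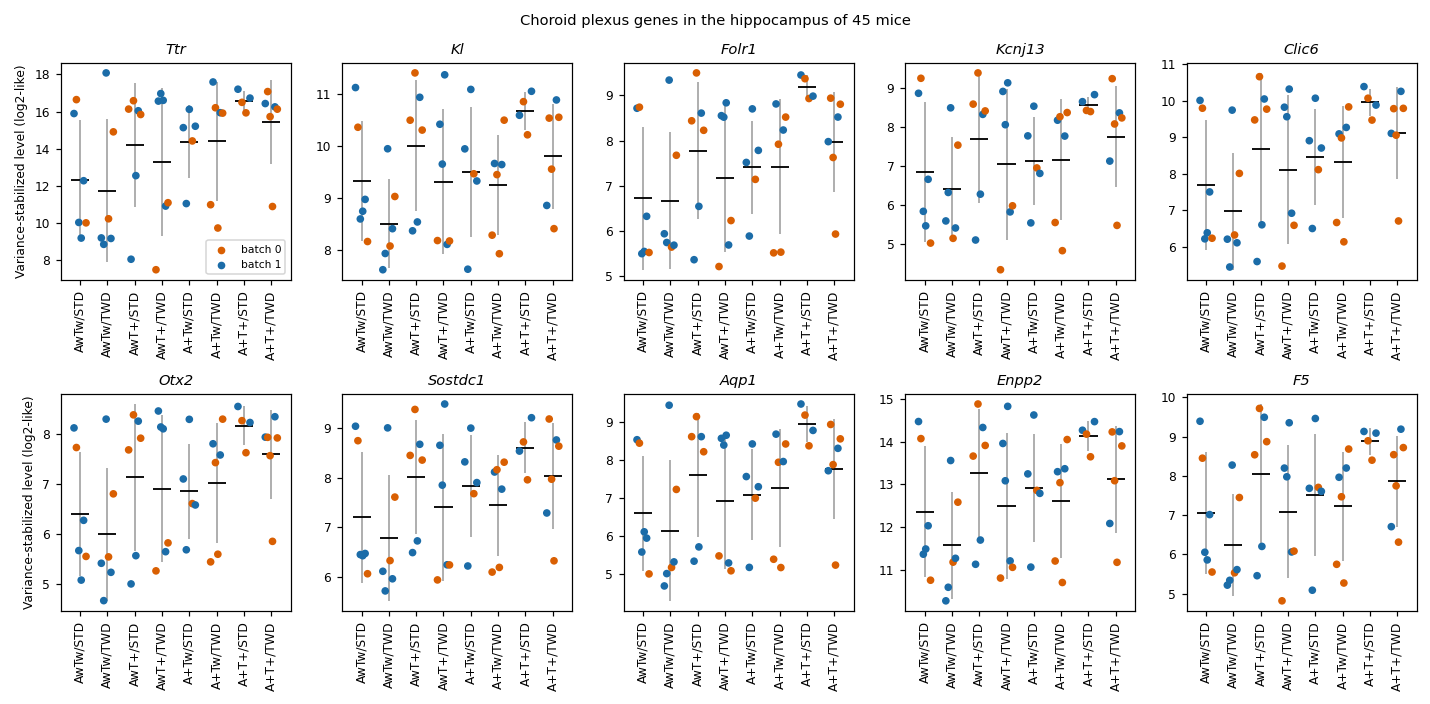
Level of each of the 10 genes (y axis, variance-stabilized log2-like values) in each of 45 mice by group (x axis). Points are mice coloured by batch, black bars are group means and grey lines are the mean ± SD. Most groups split into low and high mice, and the 4 A+T+/STD mice are all high, with Ttr between 15.93 and 17.20.

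The same mice were low for nearly every member. Sorted by Ttr, the widest step between neighbouring mice lay between 12.55 and 14.42, which is 17.6% of the range, with 17 mice below it and 28 above. These 17 mice were also the lowest 17 for Folr1, Kcnj13, Clic6, Otx2, Sostdc1, Aqp1 and Enpp2, and 16 of them were among the lowest 17 for Kl and for F5. Mice below the step made up 4 of 6 in AwTw/STD, 4 of 6 in AwTw/TWD, 2 of 6 in AwT+/STD and 3 of 6 in AwT+/TWD. They made up 1 of 5 in A+Tw/STD, 2 of 6 in A+Tw/TWD, 0 of 4 in A+T+/STD and 1 of 6 in A+T+/TWD. Both batches held such mice, with 7 of 20 in batch 0 and 10 of 25 in batch 1, as did both diets, with 7 of 21 on STD and 10 of 24 on TWD. Of the mice whose sample names begin with AM, 9 of 29 were below the step, and of those beginning with PM, 8 of 16 were. The meaning of these prefixes was not given. These counts are a description and were not tested.

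**Figure D2:**
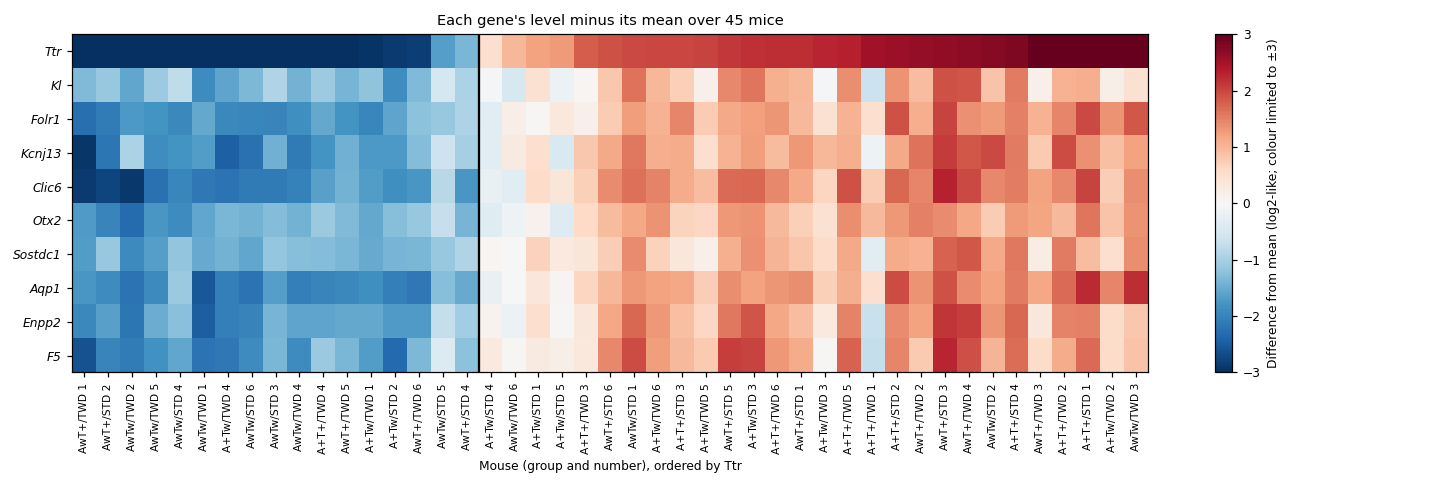
Difference of each gene from its own mean over 45 mice (colour, log2-like, limited to 3 in either direction) for the 10 genes (rows) in all mice ordered by Ttr (columns). The vertical line marks the step in Ttr, with 17 mice to its left, where the other genes are low as well, and 28 to its right.

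With group means and batch removed, Ttr correlated across the 45 mice with each of the other 9 members. Pearson's r was 0.97 with Folr1 (Spearman's rho 0.96), 0.96 with Clic6 (rho 0.95), 0.95 with Otx2 (rho 0.94), 0.95 with Aqp1 (rho 0.95) and 0.94 with Kcnj13 (rho 0.94). It was 0.91 with Sostdc1 (rho 0.91), 0.91 with F5 (rho 0.90), 0.91 with Enpp2 (rho 0.90) and 0.85 with Kl (rho 0.85). Each p, adjusted over the 9 relations, was 1e-05 in a two-sided permutation test, the smallest that 100000 permutations can give. The members were chosen for their large spread between mice of a group, and the test used this same spread. These p-values, and those within each side of the step below, are therefore no independent support. Without the 2 mice farthest from the median of Ttr, r ran from 0.84 with Kl to 0.97 with Folr1. It ran from 0.88 with Kl to 0.99 with Kcnj13 in batch 0 alone and from 0.81 with Kl to 0.97 with Folr1 in batch 1 alone. Over all 45 pairs of members the median r was 0.95, from 0.85 for Ttr and Kl to 0.99 for Kl and Enpp2, and a single component held 95.3% of the variance of the standardised values.

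Within each side of the step in Ttr, r was computed on the values as deposited, without removing group means. On these values the median r over the 45 pairs was 0.95 in all mice, 0.78 above the step and 0.54 below it. In the 28 mice above it, r of Ttr was 0.83 with Aqp1 (rho 0.78), 0.78 with Folr1 (rho 0.73) and 0.71 with Otx2 (rho 0.59), with adjusted permutation p-values from 4.5e-05 to 6e-05. It was 0.58 with Clic6 (rho 0.47), 0.57 with Kcnj13 (rho 0.54) and 0.46 with Sostdc1 (rho 0.48), with adjusted permutation p-values of 0.0024, 0.0027 and 0.021. The relation did not pass the threshold with Enpp2 (r = 0.34, adjusted permutation p = 0.094), Kl (r = 0.28, adjusted permutation p = 0.17) or F5 (r = 0.26, adjusted permutation p = 0.18). Those 3 genes stayed closely tied to each other in the same mice, with r = 0.98 for Kl and Enpp2, 0.96 for Enpp2 and F5 and 0.95 for Kl and F5. In the 17 mice below the step, r of Ttr was highest with Clic6 (0.87, rho 0.87, adjusted permutation p = 9e-05) and Folr1 (0.79, rho 0.63, adjusted permutation p = 0.00095). It missed the threshold with Kl (0.26, adjusted permutation p = 0.36) and Aqp1 (0.23, adjusted permutation p = 0.38).

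Kl, F5 and Enpp2, which were least tied to Ttr in the high mice, were among the 4 members with the longest transcripts. The longest coding transcript in GENCODE measured 1186 bases for Ttr, 1270 for Kcnj13, 1313 for Folr1, 1781 for Sostdc1, 2592 for Otx2, 2627 for Aqp1, 3095 for Enpp2, 3758 for Clic6, 5118 for Kl and 7430 for F5. In each mouse, the slope of the centred values of 15695 genes on the log2 of this length was taken as its length trend. A negative slope means that long genes were low relative to short genes in that mouse. The trend had a median of 0.082 in 21 STD mice and of -0.044 in 24 TWD mice, from -0.227 to 0.184 over all mice. In the 28 mice above the step, Ttr minus Kl ran from 4.76 to 8.13 and correlated with the length trend at r = -0.91 (rho -0.93, permutation p = 1e-05, the smallest possible here). Ttr minus F5, from 6.50 to 9.81, gave r = -0.90 (rho -0.90), and Ttr minus Folr1, from 7.00 to 8.78, gave r = -0.74 (rho -0.67). All 9 such differences had a negative r with an adjusted permutation p of 1e-05, from -0.73 for Otx2 to -0.91 for Kl. They all share Ttr, whose own level had r = -0.47 with the trend in these mice, so they are not 9 separate results. The own level of Folr1 had r = -0.01. Group and diet were not removed before the permutations. For Kl, r was -0.90 in batch 0 (13 mice), -0.94 in batch 1 (15 mice) and -0.87 without the 2 mice farthest from the median trend. In the 17 mice below the step none of the 9 differences passed the threshold, with r = -0.17 for Kl (rho -0.16, permutation p = 0.52, adjusted p = 0.95). The own levels of some members did follow the trend there, with r = 0.90 for Kl, 0.73 for Aqp1, 0.68 for Enpp2, 0.59 for F5 and 0.50 for Sostdc1. For Clic6, Otx2, Ttr, Kcnj13 and Folr1 r was 0.28, 0.14, 0.07, 0.04 and -0.08. The length trend is a property of the whole library and was examined after the values of the members had been seen, and its part in the levels of Kl, F5 and Enpp2 was not tested.

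**Figure D3:**
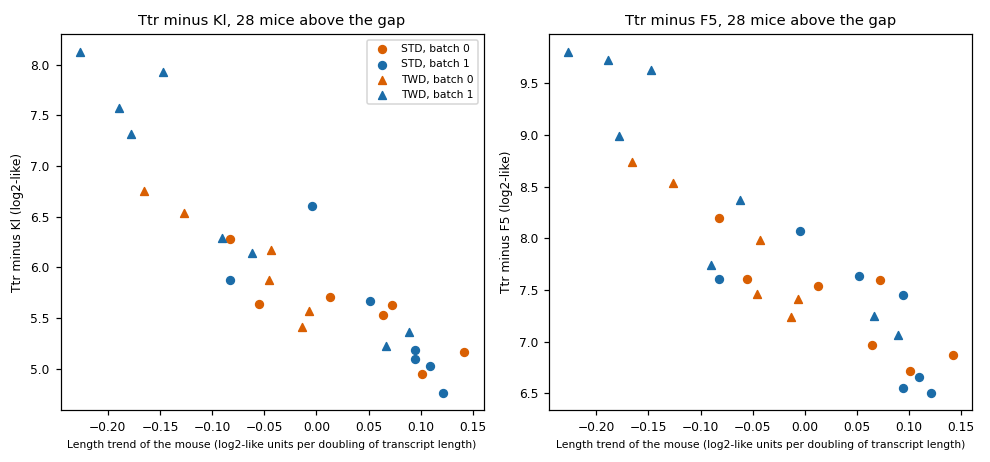
Ttr minus Kl (left) and Ttr minus F5 (right), both on the log2-like scale, against the length trend of each mouse (x axis, log2-like units per doubling of transcript length) in the 28 mice above the step in Ttr. Symbols give the diet and colours the batch, and the difference falls as the trend rises, with r = -0.91 for Kl and -0.90 for F5.

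Genes outside the 10 were ranked by their correlation with the mean of the standardised residuals of the members (45 mice, group and batch removed), as a description. Of 15887 other genes, 49 (0.308%) had r above 0.9, 144 (0.906%) above 0.8 and 600 (3.78%) above 0.5, while 172 (1.08%) had r below -0.5, and the median was -0.03. The wider list of choroid plexus genes, of which 49 of 50 were in the table (not Slco1a5), had a median r of 0.92, with 43 above 0.8. Its closest genes were Kcne2, a potassium channel subunit (r = 0.99), Slc2a12, a glucose transporter (0.98), Cldn2, a tight junction claudin of leaky epithelia (0.98), Prr32 (0.97) and Mfrp (0.97). Ace, the angiotensin-converting enzyme, had r = 0.97, the bicarbonate transporter gene Slc4a5 had 0.97, the collagen genes Col8a2 and Col8a1 had 0.97 and 0.96, and Tmem72 had 0.96. Outside any list, the genes with the most similar pattern were 1500015O10Rik (0.95), the secreted Wnt inhibitor Sfrp5 (0.95), the ferritin receptor Scara5 (0.95), 2900040C04Rik (0.95) and the cadherin Cdh3 (0.95). They were followed by Baiap2l1 (0.94), the complement regulator Cd59a (0.94), the sulfotransferase Sult1c2 (0.93), the semaphorin Sema3b (0.93) and BC067074 (0.92).

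Lists of other cell types followed the members to different degrees. The 14 ependymal genes in the table, of 15 listed (not Dnah12), marking the ciliated cells that line the ventricle, had a median r of 0.67 and 5 above 0.8, led by the cilium genes Dynlrb2 (0.84) and Cfap43 (0.83). The 15 meningeal and fibroblast genes had a median r of 0.47, led by Mgp (0.59) and the collagen gene Col1a2 (0.57). The 15 oligodendrocyte genes had a median of 0.18, led by the transferrin gene Trf (0.43) and the myelin gene Mobp (0.32), and the 15 endothelial genes had 0.14, led by Pltp (0.56), which is also on the ependymal list, and Vwf (0.40). For 13 of 15 thalamus and habenula genes (not Gbx2 or Pou4f1) the median was 0.09, with Zic1 at 0.70 and Prkcd at 0.33. The 15 hippocampal neuron genes had a median of -0.28, 14 of them below 0, with Man1a (0.13) and Spink8 (-0.08) the highest. The 14 astrocyte genes had -0.15, with Gjb6 (0.38) and Sox9 (0.17) the highest, and the 4 blood genes in the table, of 10 listed, had 0.00, with the haemoglobin genes Hba-a1 and Hba-a2 at 0.02 each. Alas2, Slc4a1, S100a8, S100a9, Ppbp and Pf4 were not among the genes of the table. All these points share the same 45 libraries.

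**Figure D4:**
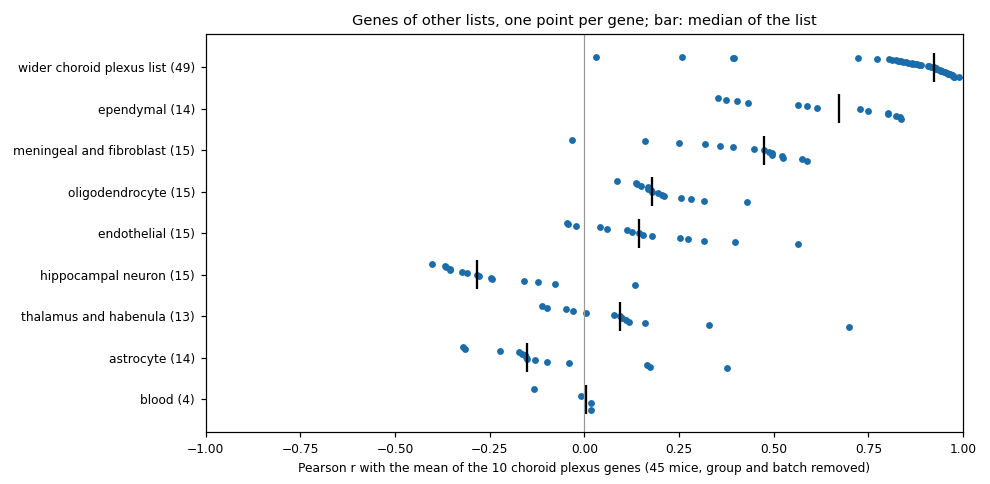
Pearson r of each gene with the mean of the 10 choroid plexus genes (x axis, 45 mice, group and batch removed) for 9 gene lists (y axis, genes in the table in brackets). Points are genes and black bars are list medians, which run from 0.92 for the wider choroid plexus list over 0.67 for ependymal genes to -0.28 for hippocampal neuron genes.

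The design asks whether the transgenes changed gene expression on either diet. No member passed an adjusted p of 0.05 (limma, all 45 mice in 1 fit with batch, Benjamini-Hochberg over all 15897 genes) in any of the 6 comparisons with AwTw mice on the same diet, although all 10 had higher group means in each of them. Of all genes, 46.1% to 53.3% were higher in these comparisons. The members moved together across mice, so a shared direction or count is not 10 separate results. Between A+T+/STD and AwTw/STD the members differed by a median of 1.84 on the log2 scale, against -0.01 over all genes, and 0 of 10 were called, with 1.32% of all genes called (210). Ttr differed by 4.34 ± 1.92 (SE; 20.3-fold; unadjusted p = 0.029, adjusted p = 0.30, limma). It was 2.89 higher in batch 0 alone and 5.12 higher in batch 1 alone. Folr1 differed by 2.50 ± 0.86 (5.67-fold; adjusted p = 0.18, limma), the lowest adjusted p of the 10, and Kl by 1.38 ± 0.68. At an unadjusted p of 0.05, 7 of the 10 members passed, as did 14.3% of all genes.

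Between A+T+/TWD and AwTw/TWD the median of the members was 1.65, 0 of 10 were called, with 0.73% of all genes called (116), and 6 passed at an unadjusted p of 0.05, as did 7.76% of all genes. Ttr differed by 3.87 ± 1.74 (SE; 14.6-fold; adjusted p = 0.59, limma), by 2.39 in batch 0 alone and by 5.02 in batch 1 alone. In A+Tw mice the median was 0.49 on STD (0 of 10 called, 0.925% of all genes called) and 1.07 on TWD (0 of 10, 0.824%). Ttr was higher by 1.97 ± 1.80 on STD and by 2.85 ± 1.74 on TWD. In AwT+ mice the median was 0.98 on STD and 0.83 on TWD, with 0 of 10 members and 0% of all genes called in both. At an unadjusted p of 0.05, no member passed in these 4 comparisons, while 380 and 484 genes of the table did in AwT+ mice on STD and on TWD, and 899 and 827 did in A+Tw mice. Ttr was higher by 1.95 ± 1.72 in AwT+/STD, but in AwT+/TWD its difference of 1.53 ± 1.71 was -3.28 in batch 0 alone, where each group had 2 mice, and 3.94 in batch 1 alone. All 3 transgenic groups on a diet were compared with the same AwTw mice.

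When both diets entered one model with terms for genotype, for diet and for batch, which was added after the values had been seen, the A+T+ mice (10) differed from AwTw mice (12) by a median of 1.72 over the members and -0.03 over all genes. All 10 members had an unadjusted p below 0.05, which 12.2% of all genes had, but adjusted p-values ran from 0.051 to 0.23 (limma), so 0 of 10 were called, with 2.32% of all genes called (369). A single component held 95.3% of the variance of the members, so they are not 10 separate observations. The difference was 4.03 ± 1.25 for Ttr (adjusted p = 0.078), 2.23 ± 0.66 for Clic6 (adjusted p = 0.060), 1.71 ± 0.49 for Otx2 (adjusted p = 0.051) and 1.53 ± 0.61 for Kcnj13 (adjusted p = 0.23, all limma). Single mice moved this count: 7 members were called without mouse 3 of AwTw/TWD, 5 without mouse 4 of A+T+/TWD or mouse 2 of AwTw/STD, and 3 without mouse 1 of AwTw/STD. It was 2 without mouse 2 of A+Tw/STD or without mouse 2, 3 or 4 of AwT+/STD, and 1 without mouse 6 of AwT+/STD, mouse 2 or 5 of AwT+/TWD, mouse 3 or 6 of A+Tw/TWD or mouse 6 of AwTw/TWD. Ttr itself was called without mouse 3 of AwTw/TWD (4.58, adjusted p = 0.020), mouse 2 of AwTw/STD (4.55, adjusted p = 0.035) or mouse 4 of A+T+/TWD (4.49, adjusted p = 0.034, all limma). These mice had the highest Ttr of each AwTw group and the lowest of the A+T+ mice. Leaving them out raises the difference by construction, so these calls are no support for it. Within batches, Ttr differed by 2.88 in batch 0 and by 5.07 in batch 1. For AwT+ mice the corresponding median was 0.87, with 0 of 10 members and 0% of all genes called, and for A+Tw mice it was 0.77, with 0 of 10 members and 1.62% of all genes called.

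Other lists stood beside this difference. The wider choroid plexus list had 47 of 49 genes higher in A+T+ than in AwTw mice over both diets, with a median of 1.12, and 0 called. All 15 meningeal and fibroblast genes were higher (median 0.54, 0 called), as were all 14 ependymal genes (median 0.31, 0 called). In contrast, 12 of 15 hippocampal neuron genes were lower (median -0.17, 1 called lower). Of all genes, 42.4% were higher and 2.32% were called. Genes higher were 12 of 15 oligodendrocyte (median 0.06), 9 of 13 thalamus and habenula (0.05) and 4 of 4 blood genes (0.19). They were 5 of 15 endothelial (-0.03) and 6 of 14 astrocyte genes (-0.04). Among these other lists, only 1 astrocyte gene was called, and it was higher. On STD the mean level of the wider list ranged from 6.74 to 8.62 in AwTw mice and from 8.42 to 8.91 in A+T+ mice. The ependymal list ranged from 6.29 to 7.32 and from 6.85 to 7.24, the meningeal list from 7.46 to 8.997 and from 8.58 to 9.30, and the hippocampal neuron list from 9.43 to 9.83 and from 9.41 to 9.48 in the same groups. The wider list was thus high in all 4 A+T+/STD mice, as the members were, and the part of these lists in the difference was not tested.

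**Figure D5:**
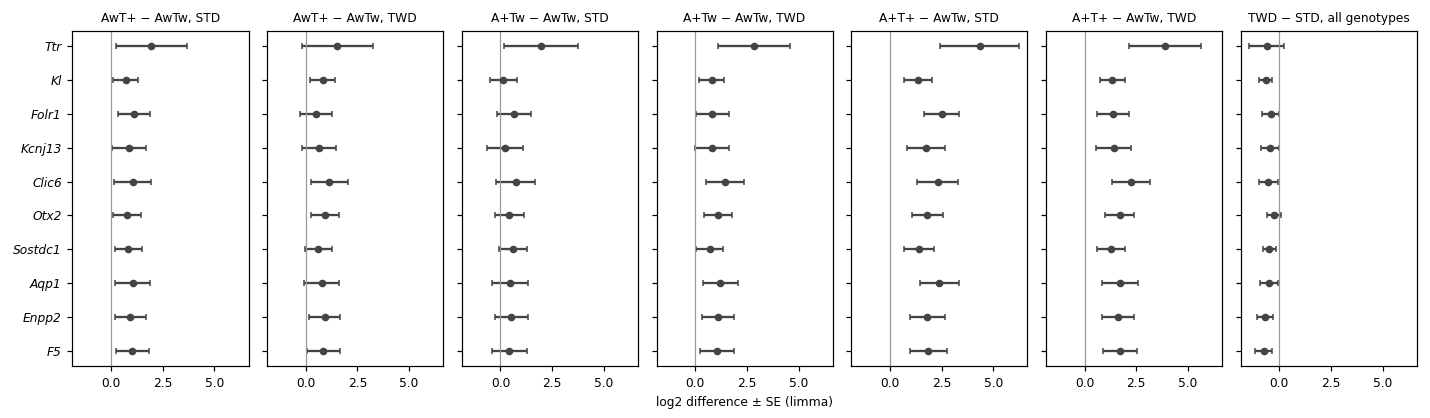
log2 difference ± SE (x axis, limma) of each of the 10 genes (y axis) for 6 genotype comparisons within a diet and for TWD against STD over all genotypes. Every genotype difference lies above 0 and every diet difference below it, none passes an adjusted p of 0.05, and Ttr differs most in A+T+/STD, by 4.34 ± 1.92.

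Over the 4 genotypes, diet was called for 29.4% of all genes (4678, limma) and for 0 of the 10 members. All 10 had lower means on TWD, with a median of -0.52 and a range from -0.24 for Otx2 to -0.75 for F5, against a median of 0.00 over all genes. Of all genes, 49.7% were higher on TWD in the fit. Kl differed by -0.65 ± 0.31 (SE; adjusted p = 0.099, limma), the only member that passed without adjustment, Enpp2 by -0.70 ± 0.38 and F5 by -0.75 ± 0.41. An unadjusted p below 0.05 was found for 44.1% of all genes. Ttr differed by -0.61 ± 0.87, by -2.69 in batch 0 alone and by 1.11 in batch 1 alone, so its direction was not the same in the 2 batches. Kl, F5 and Enpp2 had the lowest p-values of the 10 and the highest correlations of their own level with the length trend in the 28 mice above the step, at r = 0.63, 0.64 and 0.55. With that trend in the fit their differences were -0.60 for Kl, -0.79 for F5 and -0.79 for Enpp2, and 0 of all genes were called for diet. The part of the trend in these differences was not tested. Within batches the differences were -1.19 and -0.24 for Kl, -1.53 and -0.14 for F5 and -1.38 and -0.16 for Enpp2 in batch 0 and batch 1. Of the wider list, 0 of 49 genes were called higher and 5 lower, and 39 were lower in the fit, while the ependymal list had 9 of 14 higher and 0 called. On the other lists, the calls higher and lower were 0 and 1 of 15 meningeal, 5 and 2 of 15 oligodendrocyte, 4 and 1 of 15 endothelial, 3 and 2 of 15 hippocampal neuron, 1 and 2 of 13 thalamus and habenula, 3 and 4 of 14 astrocyte and 0 and 0 of 4 blood genes.

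Within genotypes, the median diet difference of the members was -0.53 in AwTw mice (0 of 10 called, 9.35% of all genes called), -0.70 in mice with tau alone (AwT+), 0.07 in those with APP/PS1 alone (A+Tw) and -0.92 in those with both (A+T+), with 0 of 10 members and 0% of all genes called in each of the last 3. In the fit with batch, all 10 members were lower on TWD in the AwTw, AwT+ and A+T+ genotypes, and 4 of 10 were in the A+Tw genotype. In A+Tw mice Clic6 differed by 0.004 in the fit, while its group mean was lower on TWD (8.33) than on STD (8.46). Across the genotypes, 48.9% to 51.3% of all genes were higher on TWD in the fit. The interaction of diet with genotype, which tests whether the diet difference was unlike that of AwTw mice, called 0 members and 0% of all genes for AwT+, A+Tw and A+T+, and no member had an unadjusted p below 0.05 there, while 639, 352 and 1001 of all genes did. A difference in the response of these genes to diet between genotypes was therefore not detectable with this spread between mice.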

How the data were processed

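Hippocampal poly(A) RNA of 45 mice was sequenced as single reads. Per the labels and the methods of the study, the authors used FastQC 0.11.8 and Trimmomatic 0.38, removed rRNA and mitochondrial reads with Bowtie2 2.2.3, quantified transcripts with kallisto 0.44.0, summed them per gene, dropped genes with a mean count of 10 or less, applied the variance-stabilizing transformation of DESeq2 1.22.2 and removed batch with limma 3.38.3. The deposited values are thus log2-like, and the depth of each library is known only as a stated minimum for all samples. In these values the mean of batch 0 equals that of batch 1 within 0.001 for every gene, so batch was kept as a covariate in the fits. The labels' notes name the build mm10, and symbols, positions and lengths were taken from GENCODE M21 (GRCm38).

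Groups were taken from the genotype and diet labels. Tests were run in R 4.3.3 with limma 3.58.1 (a linear model of the 8 groups with batch, empirical Bayes with a mean trend, two-sided, Benjamini-Hochberg over all 15897 genes, threshold 0.05), and diet over all genotypes with genotype and batch as covariates. Correlations used 100000 permutations (seed 20). Other values were computed in Python 3.11.15 (pandas 2.3.3, scipy 1.17.1, numpy 2.4.6), with matplotlib 3.10.9 for plots. The fits were tested on simulated data. The members and gene lists were chosen with earlier results of these data known. Genes named are the 10 members, the 10 genes of the wider choroid plexus list and the 10 other genes with the highest r with the member mean, and the 2 highest of each other list. The alternatives left out the batch covariate, took each batch by itself, or used robust empirical Bayes, quantile normalization, only the groups compared, the deposited values, and each mouse left out. Added after the data were seen were both diets together, the length trend as a covariate and the split at the step in Ttr. As planned, r over all mice was to be replaced by r within each side only if the residuals of Ttr had a step over 20% of their range. The chosen step was 7.03% of that range in the residuals and 17.6% in the deposited values. The r over all mice is therefore the planned result, and the split did not meet this rule.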

Additional observations from a re-analysis of the deposited data

Results flagged for a closer look

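In A+T+/TWD, mouse 4 stood apart from the other 5 mice for 4 of the 10 genes. Its Ttr level was 10.89, with the next mouse at 15.73. Its Clic6 level was 6.71, with the next at 9.06, its Otx2 level was 5.85, with the next at 7.57, and its Aqp1 level was 5.23, with the next at 7.71. The gap to the nearest mouse was 0.66 to 0.78 of the range of the group. These 4 of 80 combinations of a gene and a group were picked out by the ratio of this gap to the range. For a group of 6 mice the limit was 0.625, which chance alone passes in about 1 in 20 groups. The 4 flagged of 80 combinations are near that share, and all 4 come from the same mouse. This limit does not apply to the groups of 4 and 5 mice. Since the genes were chosen for their spread within groups, and moved together across mice, the gaps are a description and no test.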

How the results depend on the processing

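No paired analysis was run, because each mouse belonged to a single group and the labels name no pairs of mice. The numbers used here only name mice. Under no batch covariate, each batch alone, robust empirical Bayes and quantile normalization, 0 members were called in every comparison, as with only the groups compared in the 10 comparisons of 2 groups. Leaving out each mouse in turn gave 0 to 7 members called for A+T+ against AwTw over both diets and 0 to 1 for diet over all genotypes (1 without mouse 2 of A+Tw/STD or mouse 4 of AwT+/TWD), and 0 in the other comparisons. With the length trend as a covariate, 2 members, Otx2 and Clic6, were called for A+T+ over both diets.

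The direction of Ttr turned in 2 cases, the cause of which was not tested: -3.28 for AwT+/TWD against AwTw/TWD in batch 0 alone, and 1.11 for diet over all genotypes in batch 1 alone. The correlation of Ttr weakened to 0.258 below and 0.279 above the step for Kl, to 0.229 below it for Aqp1, and above it to 0.344 for Enpp2 and 0.261 for F5, in ranges narrower by construction.

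Counts over all genes moved by more than 1.5 times as follows. In batch 0 and batch 1 alone they were 5 and 85 for A+Tw/STD (147 in both batches), 64 and 24 for A+Tw/TWD (131), 41 and 34 for A+T+/STD (210), 33 and 26 for A+T+/TWD (116), 123 and 154 for A+Tw over both diets (257), 135 and 138 for A+T+ over both diets (369) and 0 and 3982 for diet in AwTw mice (1487). Diet over all genotypes gave 0 in batch 0 and 6498 in batch 1 (4678). With only the 2 groups compared they were 66 for A+Tw/STD, 68 for A+Tw/TWD, 50 for A+T+/TWD and 1 for diet in AwTw mice. With the length trend as a covariate they were 213 for A+T+/TWD, 745 for A+T+ over both diets, and 0 for diet over all genotypes and in AwTw mice. Diet in AwTw mice gave 2490 without batch and 0 with robust empirical Bayes or quantile normalization, and 0 to 6072 when single mice were left out. Leaving out single mice also gave 108 to 278 for A+T+/STD (108 without its mouse 2 and 132 without its mouse 1), 285 to 637 for A+T+ over both diets (637 without mouse 3 of AwTw/TWD) and 2768 to 5917 for diet over all genotypes (2768 without mouse 3 of AwTw/TWD and 2856 without mouse 3 of AwT+/TWD). The exact depth of each library is unknown, which limits every level near the low end of a gene's range.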
